A study of Homo sapiens with 4 samples.

Results

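Interferon-stimulated genes are the genes that a cell switches on when it senses an interferon or viral RNA, and 43 of them, chosen by name, were followed here in BT474 breast cancer cells treated with AICAR. All Affymetrix probe sets annotated to exactly 1 gene of the list were taken, with the probe set of highest mean over the arrays standing for each gene. This gave values for 42 of the 43 genes, out of 19775 genes in all; the remaining gene was not analysed here. BT474 is an established human breast cancer line that overexpresses the receptor HER2. The cells were grown in regular DMEM, which was replaced 24 h after seeding with fresh medium holding either vehicle or 0.5 mM AICAR, and total RNA was taken 24 h later. There were 2 vehicle arrays and 2 AICAR arrays, 4 in all, of 1 cell line, with no interferon-treated group. AICAR is a nucleoside that cells phosphorylate to ZMP, an AMP mimic that activates the energy-sensing kinase AMPK, and the comparison asked which transcripts differed after treatment with this activator.

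Type I and type III interferons bind receptors at the cell surface and activate the kinases JAK1 and TYK2, which assemble the factor ISGF3 around its DNA-binding subunit IRF9. ISGF3 binds interferon-stimulated response elements, short repeats of GAAA, near the start of its target genes. The products restrict viruses by sensing or destroying viral RNA, by blocking entry and release, and by attaching the ubiquitin-like protein ISG15 to other proteins, and some tumour cells keep part of the set on without infection.

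Of the 42 genes, 27 had enough signal to be tested, and of these 2 rose with AICAR and 0 fell (limma). The genes that rose were DTX3L, a ubiquitin ligase that pairs with the poly(ADP-ribose) polymerase family member PARP9, and ISG20, an exonuclease that degrades viral RNA. Neither rise reached 1.5-fold. Genes with a mean below log2 6.11, the 30th percentile of gene means, were left out of the test as dim. The remaining 27 members were tested among 13842 genes, and rose or fell is used of genes with a Benjamini-Hochberg adjusted p under 0.05 over all genes tested. The 2 called members are 7.41% of those tested. The probe set of ISG20 was picked through its AICAR values, as given below, so this share is a description and supports nothing. Among all genes tested 9.82% were called, 4.63% higher and 5.19% lower, so the share of called members was not above that of genes in general. Quantile normalization turned the split of all genes to 854 higher and 624 lower, from 641 and 718, and over the 13 alternative settings the count of higher members ran from 0 to 3. Before adjustment, 3 members were higher and 3 lower at a p under 0.05, against 12.8% of all genes higher and 13.3% lower. The median difference of the tested members, AICAR minus vehicle, was 0.01 (log2) and that of all genes tested was also 0.01.

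**Figure D1:**
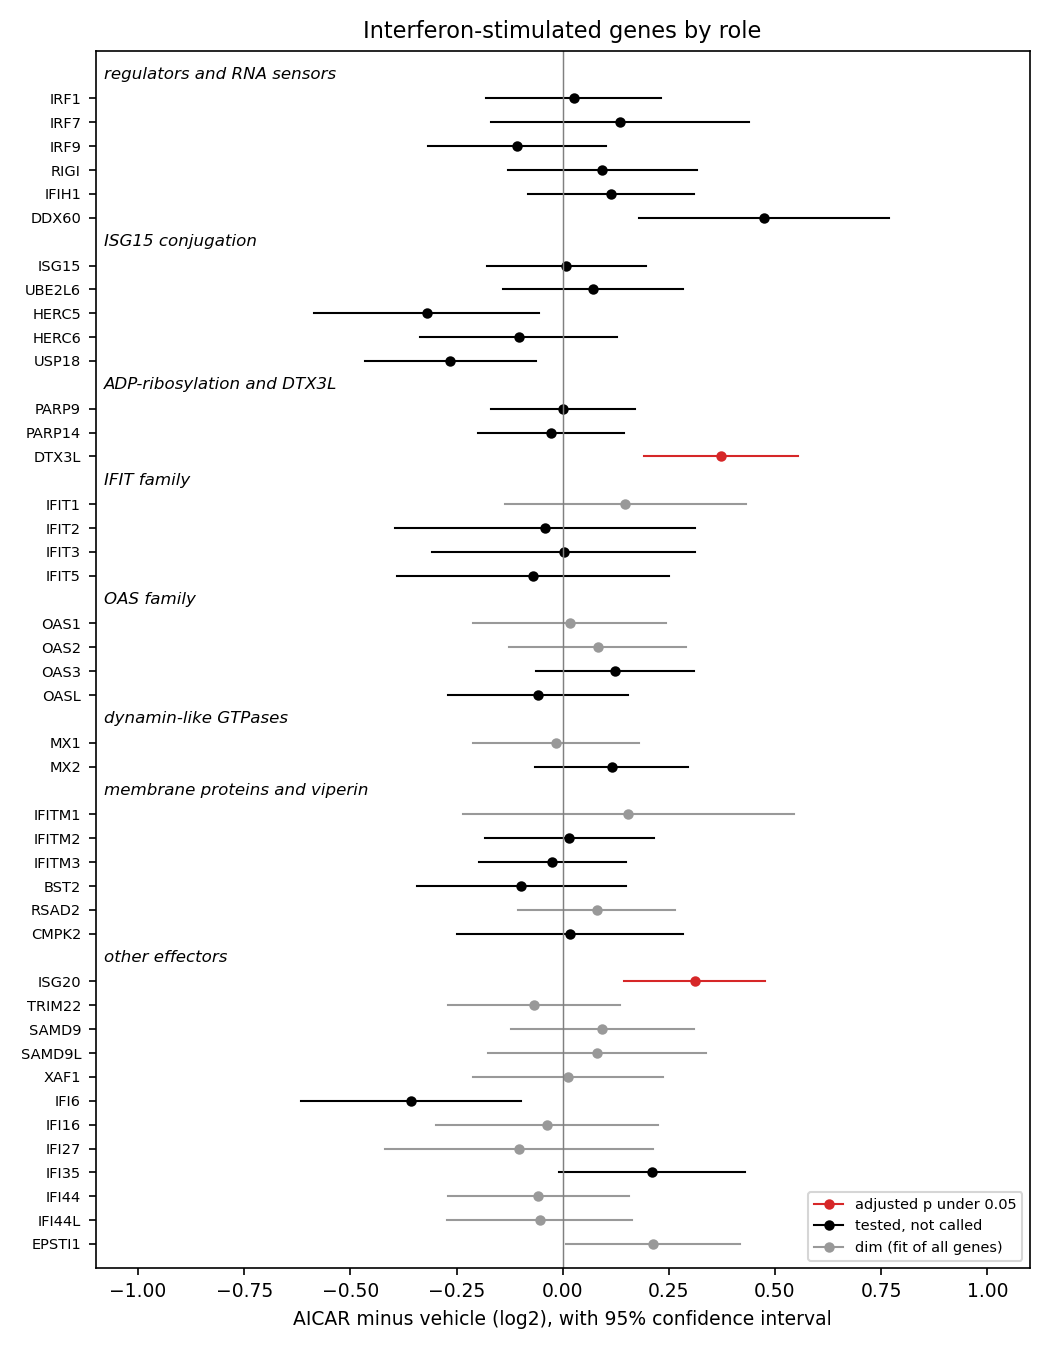
Difference between AICAR and vehicle for each of the 42 measured genes (x axis, log2; points, difference of means of 2 arrays per group; lines, 95% confidence interval from limma), grouped by role. DTX3L and ISG20 (red) are the called members, most intervals span 0, and the 15 dim genes (grey) are drawn from a fit of all genes.

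The sequences of the genes on which these results turn are shown first, as windows from 250 bases before to 50 bases after the annotated gene start, read from RefSeq on GRCh38.p14 in the direction of the gene. Capitals mark matches to GAAANNGAAA, the core letters of an interferon-stimulated response element, searched on both strands, so that it reads TTTCNNTTTC on the other. The first pair are the genes that rose, DTX3L (chr3:122564088-122564387, plus strand) and ISG20 (chr15:88638766-88639065, plus strand). IFITM3 (chr11:320811-321110, minus strand) and HERC6 (chr4:88378602-88378901, plus strand) are shown for contrast, as the uncalled tested genes of highest vehicle level for which a window was found. PARP9 (chr3:122564251-122564550, minus strand) is shown because this window of it overlaps that of DTX3L head to head.
DTX3L: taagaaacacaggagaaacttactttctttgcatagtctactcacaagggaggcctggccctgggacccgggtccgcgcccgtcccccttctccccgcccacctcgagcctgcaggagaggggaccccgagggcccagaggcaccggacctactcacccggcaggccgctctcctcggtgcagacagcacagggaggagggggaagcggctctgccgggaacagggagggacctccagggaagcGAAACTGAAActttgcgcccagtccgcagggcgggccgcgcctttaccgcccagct
ISG20: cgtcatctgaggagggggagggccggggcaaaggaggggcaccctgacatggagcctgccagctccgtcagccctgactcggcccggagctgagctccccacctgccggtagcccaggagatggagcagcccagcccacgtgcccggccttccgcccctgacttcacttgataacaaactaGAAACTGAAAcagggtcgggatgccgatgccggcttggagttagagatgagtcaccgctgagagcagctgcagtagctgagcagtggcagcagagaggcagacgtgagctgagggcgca
IFITM3: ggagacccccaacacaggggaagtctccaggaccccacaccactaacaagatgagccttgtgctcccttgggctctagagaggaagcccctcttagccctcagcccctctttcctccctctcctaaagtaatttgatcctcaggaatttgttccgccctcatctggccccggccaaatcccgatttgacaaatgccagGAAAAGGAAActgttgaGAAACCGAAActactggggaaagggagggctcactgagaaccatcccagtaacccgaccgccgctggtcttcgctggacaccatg
HERC6: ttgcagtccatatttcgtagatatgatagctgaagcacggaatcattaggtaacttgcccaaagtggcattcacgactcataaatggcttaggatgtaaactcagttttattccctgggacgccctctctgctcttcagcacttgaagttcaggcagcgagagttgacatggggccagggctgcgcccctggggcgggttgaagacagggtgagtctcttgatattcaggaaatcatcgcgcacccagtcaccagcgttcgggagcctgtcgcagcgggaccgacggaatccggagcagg
PARP9: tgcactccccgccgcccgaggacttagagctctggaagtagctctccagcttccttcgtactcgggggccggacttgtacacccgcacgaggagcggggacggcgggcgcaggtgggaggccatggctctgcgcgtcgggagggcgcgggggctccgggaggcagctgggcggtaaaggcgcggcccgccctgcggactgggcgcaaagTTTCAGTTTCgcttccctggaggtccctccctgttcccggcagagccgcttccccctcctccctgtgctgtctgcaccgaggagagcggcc
The DTX3L and PARP9 windows share 137 bases (chr3:122564251-122564387), and the 1 match that each holds is the same stretch of DNA read from opposite strands. The ISG20 window has 1 match with the same letters as that of DTX3L, the IFITM3 window has 2, and the HERC6 window has 0. A match describes letters in a window and does not show that a factor binds there.

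Windows were found for 34 of the 42 genes, and in 23 of them (67.6%) at least 1 window held GAAANNGAAA, against 4.38% of the 27305 genes with a window. Gene by gene these letters were thus common among both tested and dim members, with matches in 14 of 21 tested genes and in 9 of 13 dim genes. The shorter motif TTCNNNGAA, which activated STAT dimers bind, was held by 11 of the 34 genes (32.4%) and by 9.38% of all genes, and in 6 member windows a match of it overlapped GAAANNGAAA. The tested members with GAAANNGAAA differed between AICAR and vehicle by -0.36 to 0.47 (log2), with a median of 0.00 over 14 genes, and those without by -0.11 to 0.21, with a median of 0.03 over 7 genes. Besides DTX3L and ISG20, the tested members with a match and an unadjusted p under 0.05 were DDX60 (chr4:168318821-168318850, minus strand), HERC5 (chr4:88457035-88457064, plus strand) and IFI6 (chr1:27672329-27672358, minus strand). A match from each is shown with 10 bases on either side, because these genes share the motif while their differences, given below with their tests, had opposite signs.
DDX60: gtgctgaaggGAAACTGAAAcctaagtgct
HERC5: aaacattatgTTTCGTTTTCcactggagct
IFI6: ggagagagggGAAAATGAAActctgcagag

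The arrays were alike over the 54675 probe sets, with medians of 6.37 to 6.40 (log2), and the replicates correlated at 0.997 in each group across probe sets. The 10 luminal and HER2 markers checked, ERBB2 and GATA3 among them, had values of 9.22 to 14.3 on every array. Of these 10, the estrogen receptor gene ESR1 was lower with AICAR (-0.31, limma adjusted p = 0.0411). Of 9 measured leukocyte and stromal markers 2 were dim, among them the leukocyte gene PTPRC at 4.55 to 4.67, and 7 lay above the bound, at up to 10.08 for the collagen gene COL1A1. COL1A1 was lower with AICAR (-0.63, limma adjusted p = 0.0209). The collagen gene COL1A2, the other dim marker, went the other way, at 5.51 and 5.69 with vehicle and 5.92 and 5.89 with AICAR. The part of these markers in the results that follow was not tested. The labels do not say whether the 2 samples of a group were grown separately, and the p-values therefore cover the spread between these samples alone, part or all of which can be technical. Precision is limited by the number of arrays. The smallest p that an exact permutation test of 2 arrays against 2 allows is 0.333, and no such test was made.

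DTX3L was measured at 8.64 and 8.56 (log2) on the vehicle arrays and at 8.93 and 9.02 on the AICAR arrays. The groups did not overlap, and the gap between them was wider than that between replicates of either group. The rise was 1.30-fold (log2 difference 0.37, SE 0.0750, 95% confidence interval 0.19 to 0.55, limma adjusted p = 0.0315). DTX3L has no other probe set, so the rise rests on this 1 measurement per array. The call was lost on leaving out vehicle replicate 1 (limma adjusted p = 0.131), vehicle replicate 2 (0.173) or AICAR replicate 2 (0.0881), and when dim genes were kept in the test (0.0639).

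PARP9, the partner that binds DTX3L, was at 8.43 and 8.35 (log2) with vehicle and at 8.41 and 8.37 with AICAR. Its AICAR values lay inside the vehicle range, and the difference was 0.00 (95% confidence interval -0.17 to 0.17, limma adjusted p = 0.993). PARP14, a larger ADP-ribosyltransferase encoded nearby on the same chromosome, differed by -0.03 (-0.20 to 0.14, adjusted p = 0.843). Its other, dim probe set differed by 0.21. Of the 3 genes of this group 1 rose and 0 fell, against 4.63% higher and 5.19% lower among all genes tested. The intervals of DTX3L and PARP9 did not overlap, although the difference between the 2 genes was not itself tested.

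ISG20 was at 8.34 and 8.27 (log2) on the vehicle arrays and at 8.62 and 8.61 on the AICAR arrays. The AICAR values were nearly equal and both lay above the vehicle values. The rise was 1.24-fold (log2 difference 0.31, SE 0.0689, 95% confidence interval 0.15 to 0.48, limma adjusted p = 0.0415). Its other probe set read 8.38 and 8.29 with vehicle and 8.55 and 8.49 with AICAR, in the same direction but with a difference of 0.18 (limma adjusted p = 0.199 over all probe sets tested). With vehicle this other probe set was the higher of the 2, at a mean of 8.34 against 8.31, so the probe set that stands for ISG20 was picked through its AICAR values. The call of ISG20 was lost in each fit that left out 1 array, with differences of 0.27 to 0.35. It was also lost with the mean of both probe sets (limma adjusted p = 0.0640) and with probe sets ending in _at alone (0.0588). The same held with the replicate number as a block (0.0633) and when dim genes were kept (0.0846).

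**Figure D2:**
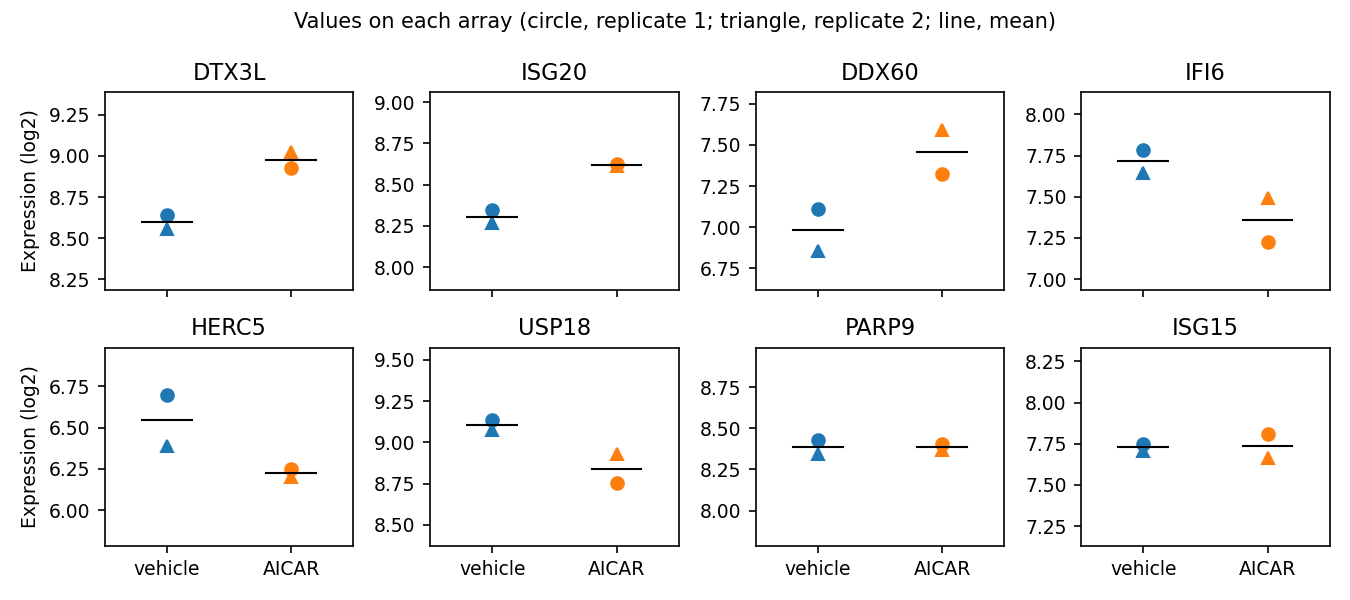
Expression (y axis, log2) of 8 interferon-stimulated genes on each array, with vehicle in blue and AICAR in orange, circles for replicate 1, triangles for replicate 2 and lines at the group mean; each panel spans the same height. DTX3L and ISG20 are higher with AICAR on both arrays, DDX60 likewise but with wider gaps between replicates, IFI6, HERC5 and USP18 are lower on both, and PARP9 and ISG15 overlap.

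The genes that sense viral RNA and carry the signal form the first group, and 0 of 6 tested members passed in either direction (limma; before adjustment 1 was higher at a p under 0.05). Among all genes tested, 9.82% were called, and before adjustment 12.8% were higher and 13.3% lower. These shares are the background for each group below, in which few calls would occur at that rate. DDX60, a helicase that assists RNA sensing, had the largest difference of any member. It was at 7.11 and 6.86 (log2) with vehicle and at 7.32 and 7.59 with AICAR, so that the groups did not overlap but the replicates stood 0.25 and 0.27 apart. The difference of 0.47 (95% confidence interval 0.18 to 0.77) had a limma adjusted p of 0.0621. It passed with a trend and robust variances (adjusted p = 0.0203) and without AICAR replicate 1 (0.0443), where the difference was 0.61.

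The RNA sensors themselves overlapped between the groups. RIGI, the sensor of short viral RNA ends, read 7.93 and 7.89 (log2) with vehicle and 7.89 and 8.12 with AICAR. Its probe set carries the suffix (_x_at) that marks probes able to match other genes, so the value is uncertain. The other probe sets of RIGI differed by 0.07 and -0.01. IFIH1, the sensor of long double-stranded RNA also called MDA5, was at 8.50 and 8.63 with vehicle and at 8.62 and 8.74 with AICAR. The difference was 0.11 (-0.08 to 0.31, limma adjusted p = 0.425). The other probe sets of IFIH1, both dim, differed by -0.26 and 0.03.

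The interferon regulatory factors also overlapped. IRF9, the DNA-binding subunit of ISGF3, differed by -0.11 (log2, 95% confidence interval -0.32 to 0.10, limma adjusted p = 0.483). IRF1, a factor induced by interferon gamma, differed by 0.03 (-0.18 to 0.23, adjusted p = 0.883). IRF7, which amplifies interferon production, differed by 0.13 (-0.17 to 0.44, adjusted p = 0.548), with vehicle arrays at 7.89 and 7.51 that enclosed both AICAR values of 7.87 and 7.79.

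In the ISG15 system 0 of 5 genes passed (limma; before adjustment 2 were lower at a p under 0.05), and the negative differences were those of HERC5, HERC6 and USP18. ISG15 itself was at 7.75 and 7.70 (log2) with vehicle and at 7.81 and 7.67 with AICAR, so the groups overlapped. It differed by 0.01 (95% confidence interval -0.18 to 0.20, limma adjusted p = 0.959). HERC5, the main ligase that attaches ISG15 in human cells, read 6.70 and 6.39 with vehicle and 6.25 and 6.20 with AICAR. Its groups did not overlap, but the vehicle arrays stood 0.31 apart and the difference was -0.32 (-0.59 to -0.06, adjusted p = 0.127). HERC6, a related gene next to HERC5 on chromosome 4, differed by -0.10 (-0.34 to 0.13, adjusted p = 0.544).

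USP18, the protease that removes ISG15 and dampens interferon receptor signalling, was at 9.14 and 9.07 (log2) with vehicle and at 8.75 and 8.93 with AICAR. Both AICAR arrays lay below both vehicle arrays, and the difference was -0.26 (95% confidence interval -0.47 to -0.06, limma adjusted p = 0.104). It passed with a trend and robust variances (adjusted p = 0.0393). UBE2L6, the conjugating enzyme that hands ISG15 to the ligases, lay close to the bound for dim genes and differed by 0.07 (-0.14 to 0.28, adjusted p = 0.654).

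The IFIT proteins bind the unusual ends of viral RNA, and their genes showed wide gaps between replicates and small differences between groups, with 0 of 3 tested genes past the threshold (limma; also 0 before adjustment). IFIT2 was at 7.11 and 6.71 (log2) with vehicle and at 6.75 and 6.99 with AICAR, so that a vehicle pair 0.40 apart enclosed both AICAR values. IFIT5 read 6.89 and 6.51 with vehicle and 6.55 and 6.71 with AICAR, and it too was enclosed. IFIT3 read 6.89 and 7.20 with vehicle and 6.93 and 7.18 with AICAR. The differences were -0.04 for IFIT2, 0.00 for IFIT3 and -0.07 for IFIT5, with limma adjusted p of 0.889, 0.993 and 0.782. Their other probe sets, all dim, differed by -0.04 for IFIT2, -0.29 for IFIT3 and -0.10 for IFIT5. IFIT1 was dim, between 4.69 and 5.05 on the 4 arrays.

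The oligoadenylate synthetases OAS1, OAS2 and OAS3 make the second messenger that switches on an RNA-degrading enzyme. OASL, a related gene, was grouped with them, and 0 of the 2 tested genes passed (limma, also 0 before adjustment). OAS3 was at 7.24 on both vehicle arrays and at 7.29 and 7.44 (log2) with AICAR. The groups did not overlap, yet the difference of 0.12 (95% confidence interval -0.06 to 0.31, limma adjusted p = 0.369) was smaller than the gap between the AICAR arrays. The other probe set of OAS3 went the other way, at -0.15. OASL, which helps RIGI signal, differed by -0.06 (adjusted p = 0.719) on this probe set and by 0.11 on its other. OAS1 and OAS2 were dim, with differences of 0.02 and 0.08.

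Of the antiviral dynamin-like GTPases, MX2 was tested. It was at 8.24 and 8.13 (log2) with vehicle and at 8.33 and 8.28 with AICAR. It differed by 0.12 (95% confidence interval -0.06 to 0.30, limma adjusted p = 0.378). MX1, a widely used marker of interferon exposure, was dim at 6.01 and 6.14 with vehicle and 6.06 and 6.06 with AICAR.

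The membrane proteins that hold viruses back at entry or release, grouped with RSAD2 and CMPK2, had 4 tested genes, and 0 passed (limma; also 0 before adjustment). IFITM3, which blocks fusion in endosomes, was at 9.54 and 9.50 (log2) with vehicle and at 9.55 and 9.45 with AICAR. Its difference was -0.02 (95% confidence interval -0.20 to 0.15, limma adjusted p = 0.868), and that of IFITM2 was 0.02 (-0.18 to 0.22, adjusted p = 0.925). Both were read by probe sets with the suffix for probes that can match other genes, so the values of these near-identical genes are uncertain. BST2, which tethers budding virions, differed by -0.10 (-0.34 to 0.15, adjusted p = 0.599). CMPK2, a mitochondrial nucleotide kinase, differed by 0.02 (-0.25 to 0.28, adjusted p = 0.942), and IFITM1 and RSAD2, the radical enzyme viperin, were dim.

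Among the 12 other effectors, 9 were dim and 3 were tested. ISG20 rose, as described. IFI6, a mitochondrial and endoplasmic reticulum protein that inhibits flavivirus replication, was at 7.78 and 7.64 (log2) with vehicle and at 7.22 and 7.49 with AICAR. It was lower on both AICAR arrays, but these stood 0.27 apart, and the difference of -0.36 (95% confidence interval -0.62 to -0.10) had a limma adjusted p of 0.0927. It passed with a trend and robust variances (0.0470). IFI35, a partner of NMI, was at 7.68 and 7.87 with vehicle and at 8.04 and 7.92 with AICAR, a difference of 0.21 (-0.01 to 0.43, adjusted p = 0.205).

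The 15 dim members were IFIT1, OAS1, OAS2, MX1, IFITM1, RSAD2, TRIM22, SAMD9, SAMD9L, XAF1, IFI16, IFI27, IFI44, IFI44L and EPSTI1. Their values on the 4 arrays ran from 3.43 to 6.39 (log2), and several of them are among the genes most used to score interferon exposure in other systems. In a fit that kept all genes their differences ran from -0.10 to 0.21, with a median of 0.02, and 0 passed (lowest limma adjusted p = 0.238; 1 at an unadjusted p under 0.05). The highest was that of EPSTI1, a gene of the epithelial-stromal interaction, at 5.05 and 5.03 with vehicle and 5.33 and 5.17 with AICAR. Probe sets of dim members that were not used differed by -0.16 (SAMD9) to 0.41 (IFI44). That of IFI44 read 3.61 and 3.99 with vehicle and 4.20 and 4.23 with AICAR, while the one used differed by -0.06. On the probe sets used, EPSTI1 and RSAD2 were the 2 dim members, of 15, whose arrays did not overlap between groups, both higher with AICAR. Among the genes tested, which leave out dim genes, 28.5% were higher and 28.0% lower without overlap. The differences are point estimates. Their limma confidence intervals in the fit that kept all genes were wider, such as -0.23 to 0.54 for IFITM1 and -0.42 to 0.21 for IFI27. Changes of probe sets near background may also be compressed, so these values describe the signal and do not bound the change of the transcript.

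**Figure D3:**
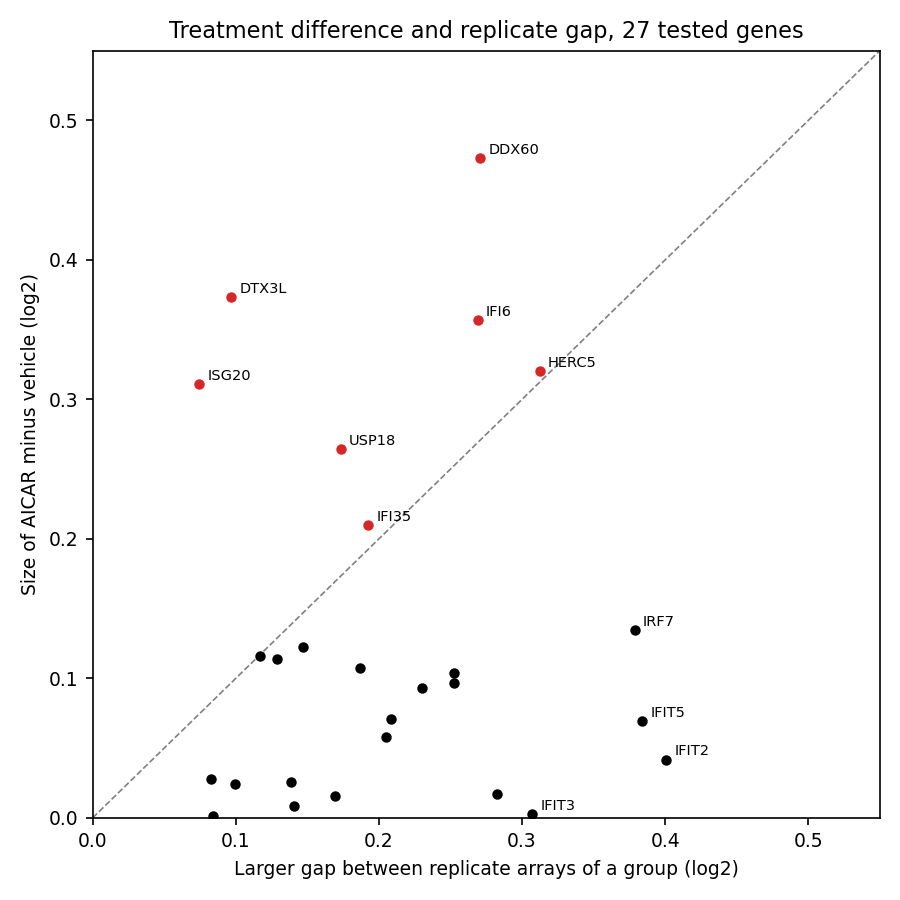
Size of the difference between AICAR and vehicle (y axis, log2) against the larger of the gaps between the replicate arrays of a group (x axis, log2) for the 27 tested members. The 7 genes in red lie above the dashed line of equality, with DTX3L and ISG20 farthest to the left of it, and IRF7, HERC5, IFIT2, IFIT3 and IFIT5 have gaps over 0.3.

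At the median, the replicates of these genes stood farther apart than those of all genes, which is a description without a test. The median gap between the vehicle arrays was 0.13 (log2) over the tested members and 0.07 over all genes tested, and between the AICAR arrays it was 0.14 and 0.09. The median size of the treatment difference was 0.10 for the members and 0.11 for all genes. For 7 of the 27 members (25.9%) the difference was larger than both replicate gaps, against 44.5% of all genes tested. They were DDX60, DTX3L, ISG20 and IFI35 on the higher side and IFI6, HERC5 and USP18 on the lower side. Vehicle replicate 1 read above vehicle replicate 2 in 18 of the 27 members (66.7%), against 53.1% of all genes.

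Both AICAR arrays lay above both vehicle arrays for 6 tested members, against 28.5% of all genes, and below them for 3, against 28.0%. The higher 6 were DDX60, DTX3L, OAS3, MX2, ISG20 and IFI35, and the lower 3 were HERC5, USP18 and IFI6. In 24 of the 27 members (88.9%), against 91.7% of all genes tested, the 95% confidence interval, not adjusted for the number of genes, lay within 1.5-fold in either direction. The exceptions were DDX60, whose interval reached 0.77 upward, and HERC5 and IFI6, whose intervals reached -0.59 and -0.62. For the other 24, ISG15 and PARP9 among them, changes of 1.5-fold or more lay outside the interval.

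**Figure D4:**
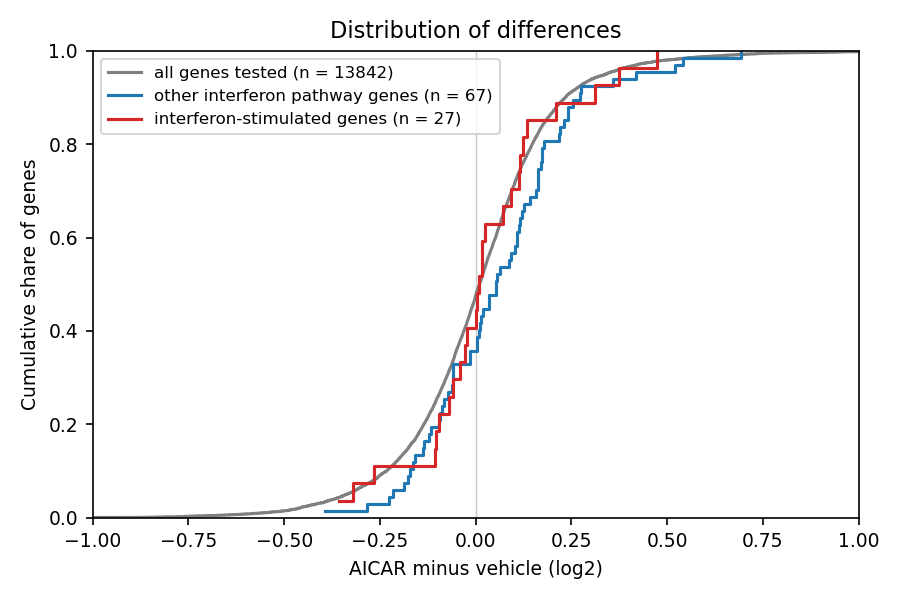
Cumulative share of genes (y axis) by the difference between AICAR and vehicle (x axis, log2, shown from -1 to 1) for the 27 tested interferon-stimulated genes, 67 other interferon pathway genes and all 13842 genes tested. The red line of the members crosses its midpoint at 0.01, as does the grey line of all genes, and the blue line at 0.05.

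Several members lie next to each other in the genome, and 14 adjacent pairs of measured interferon genes were found among protein-coding genes of the RefSeq annotation. The helicase genes DDX60 and DDX60L on chromosome 4 differed by 0.47 and 0.54 (log2). The first is a member and the second is from the wider pathway list. Whether the probes of these related genes match both transcripts was not tested, and the other, dim probe set of DDX60L differed by -0.23. HERC6 and HERC5, on the same chromosome, differed by -0.10 and -0.32. PARP9 and DTX3L on chromosome 3 differed by 0.00 and 0.37. In the IFIT cluster on chromosome 10, the OAS cluster on chromosome 12 and the MX pair on chromosome 21 the differences of all genes lay between -0.07 and 0.15. No test was made of whether neighbours moved alike.

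**Figure D5:**
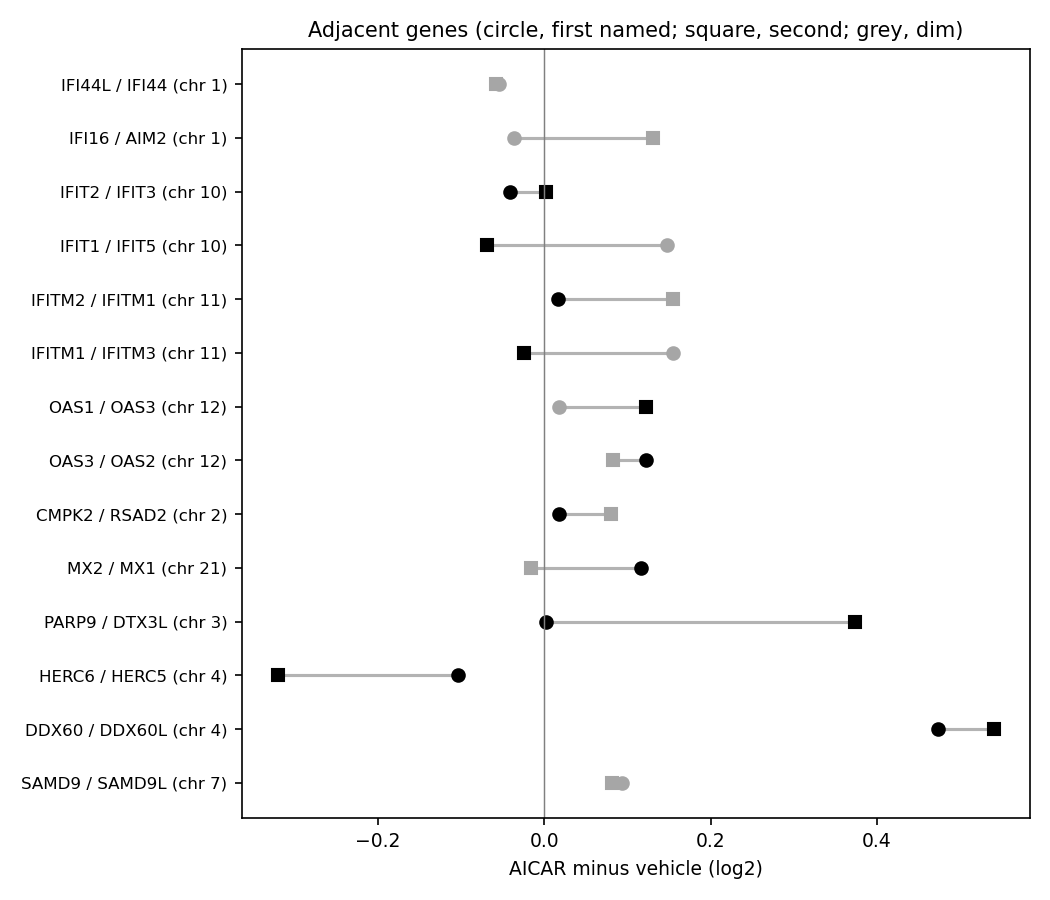
Difference between AICAR and vehicle (x axis, log2) for 14 pairs of adjacent interferon genes, a circle for the first gene named and a square for the second, with dim genes in grey. DDX60 and DDX60L lie together on the right, HERC5 and HERC6 on the left, and PARP9 and DTX3L are 0.37 apart.

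The measurement of a gene by more than 1 probe set was available for 21 of the 42 members. In 13 of them the probe sets differed in sign, most often with a dim second probe set, and in 8 they had the same sign. Of the 32 member probe sets above the bound for dim genes 1 was called when each was tested on its own, that of DTX3L, against 2159 of 24874 probe sets (8.68%).

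The wider interferon pathway was described with 101 further genes, of which 95 were measured and 67 tested. Of these 4 rose and 1 fell, or 7.46%, against 9.82% of all genes, with a median difference of 0.05 (log2). The 4 include NLRC5, which passed the filter on dim genes only through the group where it is high, so this share is a description and supports nothing. Before adjustment 13 of the 67 were higher and 4 lower at a p under 0.05, against 12.8% and 13.3% of all genes. Both AICAR arrays lay above both vehicle arrays for 27 and below them for 18, against 28.5% and 28.0% of all genes. These counts hold NLRC5 as well and are likewise a description. The interferons themselves gave little signal, and all 12 measured interferon genes were dim, with values of 3.32 to 6.21 on the arrays. Of the receptors and kinases 0 of 8 passed (limma; before adjustment 2 were higher and 0 lower at a p under 0.05). The interferon gamma receptor subunit IFNGR1 came nearest, at 9.77 and 9.67 with vehicle and 9.99 and 10.17 with AICAR (difference 0.36, limma adjusted p = 0.0516). Of the sensing and induction genes 0 of 13 passed in either direction, and before adjustment 0 were higher and 1 lower at a p under 0.05. Of the 12 factors and feedback genes 1 rose, NLRC5, and 0 fell, with 2 higher and 1 lower before adjustment. Of the 34 further induced genes 3 rose and 1 fell (11.8%, against 9.82% of all genes), with 9 higher and 2 lower before adjustment.

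NMI, which binds IFI35 and STAT proteins, rose from 9.03 and 8.94 (log2) with vehicle to 9.42 and 9.59 with AICAR, 1.43-fold (difference 0.52, SE 0.0862, limma adjusted p = 0.0200). The guanylate-binding protein gene GBP3 read 7.48 and 7.26 with vehicle and 7.89 and 8.23 with AICAR, a rise of 1.62-fold (0.69, adjusted p = 0.0265). DDX60L, the neighbour and relative of DDX60, went from 7.84 and 7.76 to 8.17 and 8.51, a rise of 1.45-fold (0.54, adjusted p = 0.0383). Its other, dim probe set differed by -0.23, and the mean of its probe sets by 0.15 (adjusted p = 0.517). NLRC5, the activator of class I antigen presentation genes, rose from 5.96 and 6.01 to 6.32 and 6.49 (0.42, limma adjusted p = 0.0297). Both vehicle values of NLRC5 lie below the bound for dim genes of 6.11, so it entered the test only through its AICAR values, and the call was lost when dim genes were kept (0.0587).

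The pathway gene that fell was ZC3HAV1, the zinc finger antiviral protein that targets CpG-rich RNA. It was at 10.19 and 10.17 (log2) with vehicle and at 9.78 and 9.80 with AICAR, 1.31-fold lower (difference -0.39, SE 0.0660, limma adjusted p = 0.0207). Its other probe sets gave -0.40 and 0.13, and with the mean of all the fall did not pass (-0.22, adjusted p = 0.104). Each of these 5 pathway genes lost its call without vehicle replicate 1, without vehicle replicate 2 and without AICAR replicate 2, with adjusted p of 0.0540 to 0.170, while the sign of each difference stayed.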

How the data were processed

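The authors deposited normalized log2 values of each probe set, made with Affymetrix Expression Console, per the submitters' processing notes. Its version, its algorithm and its handling of background were not given in the sources used here. Values ran from 2.95 to 15.3. Probe sets were named through the platform annotation, in which 41097 of 42898 annotated probe sets had 1 symbol, and symbols were updated through Entrez IDs with the RefSeq table of GRCh38.p14. Each of 19775 genes was read by its probe set of highest mean, 13842 passed the bound for dim genes, and AICAR minus vehicle was tested, two-sided, by lmFit followed by eBayes (limma 3.58.1, run in R 4.3.3). The fit was also run on simulated arrays drawn from its own variance model, which cannot show whether that model holds for these data.

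The members and the lists were chosen with earlier results of these data known. Genes were described in groups by role, with array values for called members and for the largest difference of each group; other members with array values, such as USP18, PARP9 and ISG15, were chosen after their values were seen. From the pathway list every called gene was named, and IFNGR1 was added after its value was seen. Samples of the same number deviated with a correlation of -0.07 across genes, so the numbers were not taken as pairs. Alternatives were other dim filters, quantile normalization, median centring, a trend with robust variances, other choices of probe set, an adjusted p under 0.1, a replicate block, and each array left out.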

Additional observations from a re-analysis of the deposited data

How the results depend on the processing

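The count of interferon-stimulated genes higher with AICAR, 2 with all arrays, was 0 when dim genes were kept, 1 with the mean of all probe sets, 1 with probe sets ending in _at alone and 1 with the replicate block, and 0 to 2 with an array left out. The count lower, 0, was 2 with a trend and robust variances and 1 at an adjusted p under 0.1. The fall of 2 genes under the trend was that of USP18 and IFI6, and the gene at the looser threshold was IFI6. The median difference of the members stayed between -0.02 and 0.04 over the 13 alternatives, and 10 of the 27 tested members kept their sign in all of them, DTX3L, ISG20, DDX60, IFI6, HERC5 and USP18 among these. Over all genes, 641 higher and 718 lower became 368 and 355 when dim genes were kept, 854 and 624 after quantile normalization, 1107 and 1359 with a trend and robust variances, and 1093 and 1173 at an adjusted p under 0.1. With an array left out they were 69 to 553 and 30 to 432. The pathway genes outside the list, 4 higher and 1 lower, were 2 higher when dim genes were kept, 7 with the 50th percentile filter, 7 after quantile normalization, 9 higher and 2 lower with a trend and robust variances, 8 higher at an adjusted p under 0.1 and 2 lower with probe sets ending in _at alone. With an array left out they were 0 to 6 higher and 0 to 2 lower. In fits without an array the lone sample of a group is assumed to vary like the others. The replicate block removed the call of ISG20 (adjusted p = 0.0633) and kept that of DTX3L. The causes of these changes between settings were not tested.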
